A study of Homo sapiens with 6 samples.

Results

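The transcripts of 10 zinc-finger and nuclear-receptor genes, EGR1, EGR2, EGR3, KLF2, KLF4, KLF6, KLF10, NR4A1, NR4A2 and NR4A3, were measured in HK2 cells, an established line of human proximal tubular epithelial cells. The genes were taken by symbol, and all 10 were found among the 38100 genes of the deposited tables. Cells infected with an empty control adenovirus (AdCtrl) were compared with cells infected with one that carries SIRT4 (AdSirt4). Each group had 3 samples, and all 6 received TGF-β1 and had the genotype label WT. SIRT4 is a sirtuin best known from mitochondria, and the study asked what its overexpression does to gene expression and splicing under TGF-β1. No sample without TGF-β1 or without virus was analysed here, so the values do not show how either one acts on these genes.

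EGR, KLF and NR4A genes belong to the early response of a cell, in which growth factors, stress and cytokines switch on transcription within minutes through kinases and factors that are already present. EGR proteins carry zinc fingers and bind GC-rich DNA, and KLF proteins bind GC and CACCC boxes with zinc fingers of a related kind. NR4A proteins are orphan nuclear receptors, which are controlled mainly through their amount and not through a hormone. In kidney epithelium, EGR1 is known as a factor induced by injury and by TGF-β, and KLF10 was first described as a gene induced early by TGF-β.

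The libraries held between 41537353 and 85684748 counts, with the smallest and the largest both in the AdSirt4 group. SIRT4 itself was measured at 0.573 to 1.11 CPM (counts scaled to the size of the library with TMM factors) in AdCtrl and at 51.2 to 92.7 CPM in AdSirt4 samples. The epithelial transcripts KRT8 and PAX8 had 411 and 50.9 FPKM (counts scaled to library size and gene length) as means of AdCtrl cells. Of 15 markers listed for HK2 proximal tubular epithelium, 8 reached a mean of 1 FPKM. These 8 include VIM and CDH2, with 281 and 51.6 FPKM in AdCtrl cells. CDH1, the gene of E-cadherin, had 0.119 FPKM there, PAX2 0.314, SLC34A1 0.237 and CUBN 0.0187. The markers of the mature tubule LRP2, ANPEP and AQP1 had too few counts for a test. Of the markers of other cell types, 0 of 5 endothelial, 1 of 5 leukocyte (CD68), 2 of 5 fibroblast (LUM and COL1A1) and 1 of 5 podocyte markers (SYNPO) reached 1 FPKM, and CD3E and TYROBP had 0 counts in every library. The summed FPKM of these lists in AdCtrl and AdSirt4 samples was 0.0593 to 0.0853 and 0.0604 to 0.109 for endothelium, 17.1 to 19.2 and 19.0 to 22.2 for leukocytes, 8.91 to 9.93 and 8.66 to 9.52 for fibroblasts and 11.4 to 11.8 and 7.44 to 13.3 for podocytes. Their part in the results was not tested. AdSirt4 replicate 1 stood apart from the other libraries. Its deviation from the gene means and gene length had a Spearman's rho of -0.56 over the genes, and in the other 5 libraries rho lay between 0.097 and 0.43. This is a description over genes, which are not independent. Values without this library are given beside many of the results, though not for every gene named. The study's checklist gives technical replicates as the meaning of n in vitro, while its methods speak of independent experiments, and nothing says which holds for these libraries, so the p-values below measure the spread between these samples only.

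The 10 genes spanned a wide range of levels. On the FPKM scale, which allows levels of different genes to be compared, EGR1 was the most abundant member in AdCtrl cells with 42.7 ± 4.64 FPKM (SD, n = 3), followed by KLF6 with 24.0 ± 0.417 and KLF10 with 16.5, 16.4 and 18.0 FPKM in its 3 samples. These 3 genes did not overlap with each other or with any other member in AdCtrl cells. KLF4 had 2.54 ± 0.601 FPKM and NR4A1 2.11 ± 0.404 FPKM, and the ranges of these neighbours overlapped. EGR2 followed with 1.20 ± 0.175 FPKM. KLF2 with 0.631 ± 0.104 FPKM and NR4A2 with 0.536 ± 0.137 FPKM again overlapped. EGR3 with 0.249 ± 0.102 FPKM and NR4A3 with 0.0964 ± 0.0432 FPKM were the lowest. In AdSirt4 cells the order differed in 1 step, since EGR3 with 0.576 ± 0.289 FPKM stood before NR4A2 with 0.395 ± 0.0775 FPKM. The ranges of EGR3 and NR4A2 overlapped in AdSirt4 cells, as did those of KLF6 and KLF10, of NR4A1 and EGR2 and of KLF2 and EGR3.

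**Figure D1:**
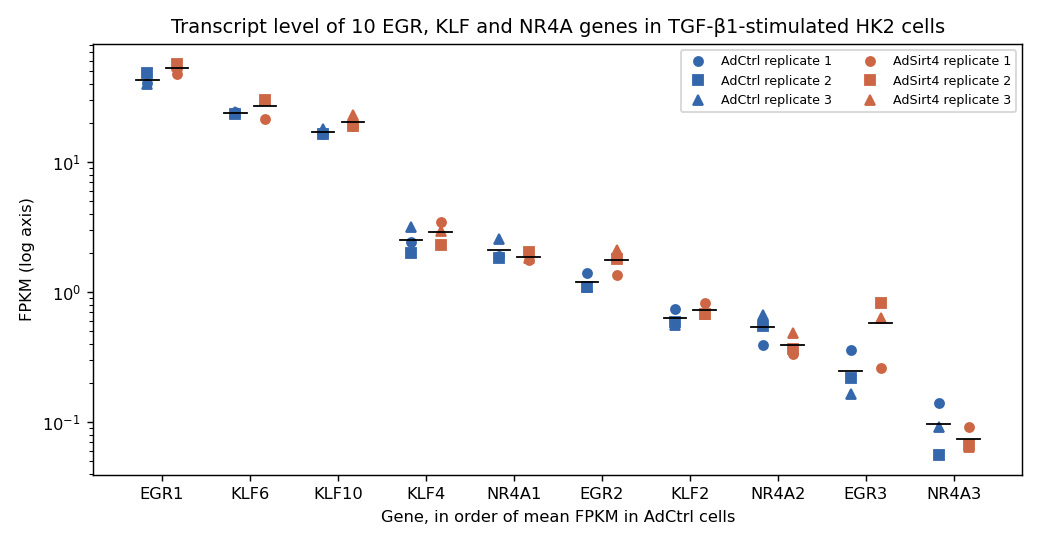
FPKM (log axis) of the 10 genes in each of the 6 samples, in the order of their mean in AdCtrl cells, with blue points for AdCtrl, orange points for AdSirt4, a marker shape for each replicate number and a black bar for each group mean. EGR1, KLF6 and KLF10 lay above 16 FPKM in every sample, and the other members below 4 FPKM.

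With edgeR's quasi-likelihood test, none of the 10 members reached an adjusted p under 0.05 for AdSirt4 against AdCtrl cells, where 0.0113% of the 17720 genes tested passed as higher. All 10 members had enough counts to be tested. At an unadjusted p under 0.05, EGR1, EGR2, EGR3 and KLF10 passed, all 4 with higher values in AdSirt4 cells, against a background of 4.43% of all tested genes. DESeq2 and limma on log2(FPKM + 1) also gave 0 members at an adjusted p under 0.05. Without AdSirt4 replicate 1, edgeR called 4 members at an adjusted p under 0.05, namely EGR2, EGR3, KLF6 and KLF10, all as higher, where 3.37% of all genes passed as higher. Limma voom, which weighted the samples by their quality, called 4 members as well, EGR1, EGR2, EGR3 and KLF6, against 4.74% of all genes called as higher. Of the 10 members, 7 had a log2 fold change above 0, where this held for 53.4% of all genes. Its median over the members was 0.24, beside 0.021 for all genes tested. The members below 0 were the 3 NR4A genes. In bulk RNA of this kind, fewer cells that express a gene and less RNA of it in each cell cannot be told apart.

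EGR1 is the prototype of its family and a direct target of the kinase ERK through serum response factor. Its level was 144, 176 and 137 CPM in AdCtrl replicates 1, 2 and 3 and at 184, 204 and 192 CPM in AdSirt4 replicates 1, 2 and 3. The groups did not overlap, although AdSirt4 replicate 1 and AdCtrl replicate 2 were close. Group means were 152 ± 21.0 CPM and 193 ± 10.2 CPM (SD, n = 3). EGR1 had a log2 fold change of 0.34 (standard error, SE, 0.124, 95% interval from 0.051 to 0.64, adjusted p = 0.600 from edgeR). With AdSirt4 replicate 1 left out, the log2 fold change was 0.37 (edgeR adjusted p = 0.0630). A two-sided exact permutation test gave p = 0.1, the smallest value that 3 samples against 3 allow. In the RefSeq annotation of GRCh38, EGR1 spans 138465479 to 138469303 on chromosome 5.

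EGR2, which is known for its part in myelination and in lymphocytes, lies on chromosome 10 from 62811996 to 62819167. It was measured at 4.66, 3.81 and 3.35 CPM in AdCtrl and at 5.03, 5.83 and 6.84 CPM in AdSirt4 replicates 1, 2 and 3. The groups did not overlap, and the AdSirt4 sample nearest to the AdCtrl samples was replicate 1. EGR2 had a log2 fold change of 0.59 (SE 0.181, edgeR adjusted p = 0.545), with a 95% interval from 0.16 to 1.01, and the exact permutation test gave p = 0.1. EGR2 rose by 0.68 on the log2 scale without AdSirt4 replicate 1 (edgeR adjusted p = 0.0253).

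EGR3, a close relative that EGR1 and EGR2 resemble in their DNA-binding domain, lies on chromosome 8 from 22687659 to 22693480. It had the largest log2 fold change of the 10 members. Its values were 1.78, 1.15 and 0.837 CPM in AdCtrl and at 1.46, 4.23 and 3.20 CPM in AdSirt4 replicates 1, 2 and 3. AdSirt4 replicates 2 and 3 lay above all AdCtrl samples, while replicate 1 lay within the AdCtrl range. EGR3 had a log2 fold change of 1.25 (SE 0.435, 95% interval from 0.22 to 2.28, adjusted p = 0.589 from edgeR), and the two-sided exact permutation test gave p = 0.2. Without AdSirt4 replicate 1, EGR3 rose by 1.55 on the log2 scale (edgeR adjusted p = 0.0116). The raw counts behind these values were low, from 43 to 96 in AdCtrl and from 57 to 365 in AdSirt4 samples. A long noncoding gene, LOC107986924, overlaps the position of EGR3 and had at most 11 counts in any sample. The labels describe no strand marking, so reads of overlapping genes cannot be told apart.

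**Figure D2:**
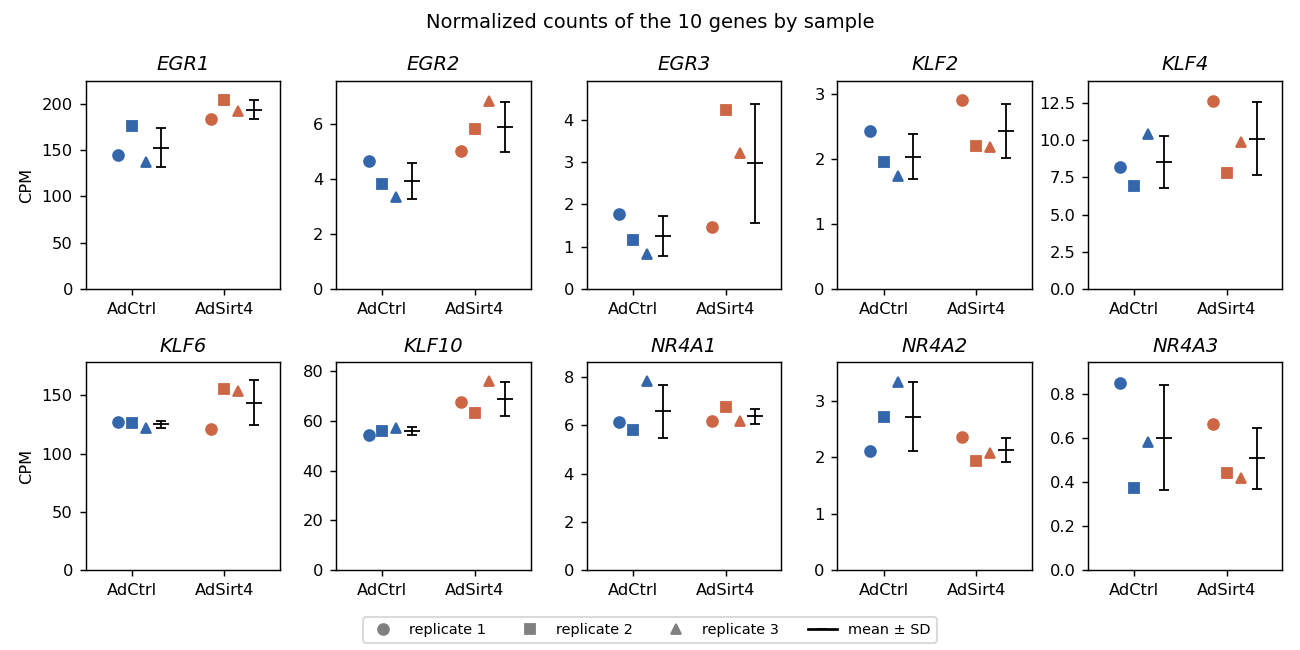
CPM of each of the 10 genes by sample (vertical axes from 0, one scale a gene), with a marker shape for each replicate number and the group mean ± SD in black. AdSirt4 replicate 1 lay in or near the AdCtrl range for EGR3 and KLF6, while the 2 groups were apart for EGR1, EGR2 and KLF10.

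KLF10, also called TGF-β-inducible early gene, is known to restrain SMAD7 and so to support TGF-β signaling. It lies on chromosome 8 from 102648784 to 102655725. KLF10 was measured at 54.1, 55.8 and 57.2 CPM in AdCtrl and at 67.3, 62.9 and 76.0 CPM in AdSirt4 replicates 1, 2 and 3. Its groups did not overlap, and the AdCtrl samples lay close together. For KLF10 the log2 fold change was 0.30 (95% interval from 0.067 to 0.54, adjusted p = 0.563 from edgeR), with p = 0.1 from the exact permutation test. KLF10 rose by 0.31 on the log2 scale without AdSirt4 replicate 1 (edgeR adjusted p = 0.0285).

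KLF6, a widely expressed factor that is induced by injury in epithelia, lies on chromosome 10 from 3775996 to 3785209. KLF6 was measured at 127, 126 and 122 CPM in AdCtrl and at 121, 156 and 154 CPM in AdSirt4 replicates 1, 2 and 3. AdSirt4 replicate 1 was the lowest of all 6 samples, while the other AdSirt4 replicates were the highest. Group means were 125 ± 3.03 CPM and 144 ± 19.3 CPM (SD, n = 3). KLF6 had a log2 fold change of 0.20 (SE 0.120, edgeR adjusted p = 0.718), with p = 0.4 from the exact permutation test. Without AdSirt4 replicate 1 KLF6 rose by 0.30 on the log2 scale (edgeR adjusted p = 0.00901), with the smallest adjusted p of the members. After a correction for gene length in every library, all samples kept, the value was 0.25 (edgeR adjusted p = 0.226).

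KLF2 and KLF4, which are best known from blood vessels and from barrier epithelia and stem cells, showed another order of samples. KLF2, on chromosome 19 from 16324826 to 16328685, was measured at 2.42, 1.95 and 1.73 CPM in AdCtrl and at 2.90, 2.20 and 2.18 CPM in AdSirt4 replicates 1, 2 and 3. KLF4, on chromosome 9 from 107484852 to 107489769, was measured at 8.19, 6.94 and 10.4 CPM in AdCtrl and at 12.7, 7.77 and 9.86 CPM in AdSirt4 replicates. For both genes AdSirt4 replicate 1 was the highest of the 6 samples, and the other AdSirt4 replicates lay within the AdCtrl range. KLF2 had a log2 fold change of 0.24 (SE 0.207, 95% interval from -0.24 to 0.73, adjusted p = 0.766 from edgeR). That of KLF4 was 0.24 (SE 0.221, 95% interval from -0.29 to 0.76, adjusted p = 0.776 from edgeR). The exact permutation test gave p = 0.3 for KLF2 and p = 0.5 for KLF4. Without AdSirt4 replicate 1 the log2 fold changes were 0.098 for KLF2 and 0.040 for KLF4. Between samples of the same number, the log2 differences were 0.26, 0.17 and 0.33 for KLF2 and 0.63, 0.16 and -0.079 for KLF4. KLF2 was thus higher in every pair and KLF4 in 2 of 3. EGR1, EGR2 and KLF10 were also higher in every pair, and the other members were not. With the replicate number as a block, edgeR gave an adjusted p of 0.707 for KLF2 and 0.711 for KLF4.

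The 3 NR4A receptors had log2 fold changes below 0, none of them past a threshold in the edgeR test of all samples. Only for NR4A2 did the direction hold in every alternative that could test it. In limma voom NR4A2 had a log2 fold change of -0.40 (voom unadjusted p = 0.0393, adjusted p = 0.158). NR4A1, also known as Nur77, lies on chromosome 12 from 52022832 to 52059503 and was measured at 6.12, 5.79 and 7.84 CPM in AdCtrl and at 6.18, 6.74 and 6.19 CPM in AdSirt4 replicates 1, 2 and 3. All 3 AdSirt4 samples lay within the AdCtrl range. NR4A1 had a log2 fold change of -0.048 (SE 0.149, 95% interval from -0.40 to 0.30, adjusted p = 0.917 from edgeR), and the exact permutation test gave p = 1. The value was 0.097 without AdCtrl replicate 3 and 0.024 in limma voom. The long noncoding genes LOC124902934, LOC107984510 and NR4A1AS overlap NR4A1 and had at most 7 counts in any sample.

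NR4A2 (Nurr1), which is known for its part in dopamine neurons, lies on chromosome 2 from 156324437 to 156332721. Its values were 2.11, 2.71 and 3.33 CPM in AdCtrl and at 2.36, 1.94 and 2.08 CPM in AdSirt4 replicates 1, 2 and 3. AdSirt4 replicates 2 and 3 lay below every AdCtrl sample and replicate 1 lay among them. For NR4A2 the log2 fold change was -0.36 (95% interval from -0.85 to 0.14, adjusted p = 0.716 from edgeR), with p = 0.2 from the exact permutation test. Without AdSirt4 replicate 1 it was -0.44 (edgeR adjusted p = 0.218). NR4A3 (NOR1), on chromosome 9 from 99821885 to 99866891, was the member with the fewest reads, from 16 to 46 counts a sample. It was measured at 0.851, 0.377 and 0.584 CPM in AdCtrl and at 0.667, 0.441 and 0.418 CPM in AdSirt4 replicates. The groups overlapped, and the 95% interval of its log2 fold change of -0.29 (SE 0.373, edgeR adjusted p = 0.822) ran from -1.17 to 0.60. It was -0.51 without AdSirt4 replicate 1 and 0.049 without AdCtrl replicate 1.

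**Figure D3:**
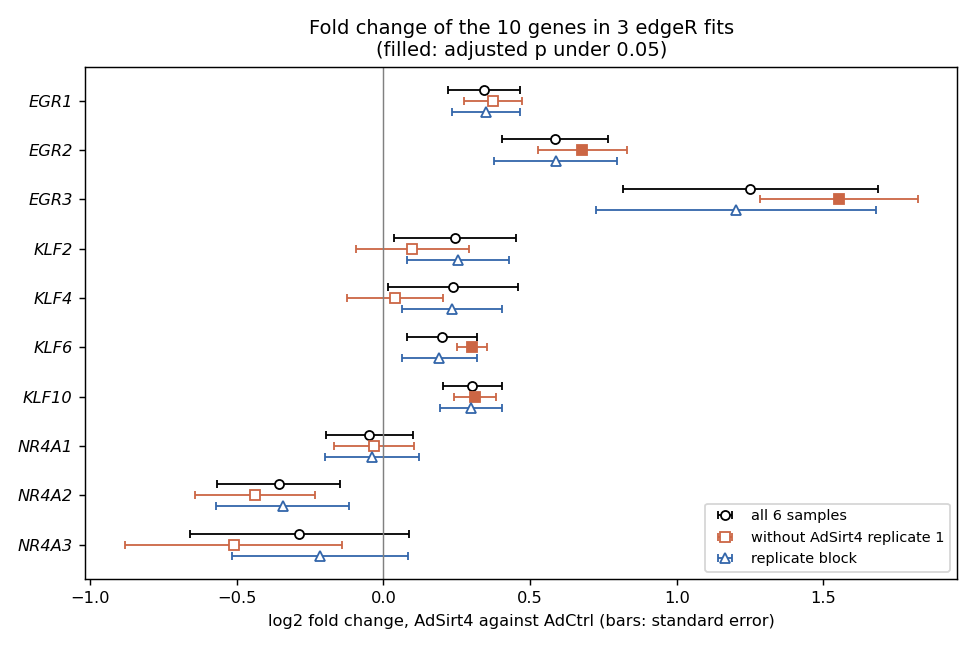
Log2 fold change (AdSirt4 over AdCtrl) for each of the 10 genes with its standard error, from edgeR on all 6 samples (black), without AdSirt4 replicate 1 (orange) and with the replicate number as a block (blue). Filled symbols had an adjusted p under 0.05, which held for EGR2, EGR3, KLF6 and KLF10 without AdSirt4 replicate 1 and for no member in the other 2 fits.

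Read across the members, the AdSirt4 samples differed from each other in which genes were high. EGR1, EGR2, EGR3, KLF2 and KLF10 lay above their AdCtrl mean in all 3 AdSirt4 samples, and NR4A2 in none of them. AdSirt4 replicate 1 had the highest value of its group for 4 members and the lowest for 5. Relative to the mean of the other AdSirt4 replicates, EGR3 differed by -1.31, KLF6 by -0.35 and EGR2 by -0.33 on the log2 scale in replicate 1, whereas NR4A3 differed by 0.60, KLF4 by 0.53, KLF2 by 0.40 and NR4A2 by 0.23. The genes differ in length, and the 1000 tested genes closest in length to EGR3, at 5.16 kb, had a median of -0.22 in the same contrast, while those closest to KLF6, at 5.25 kb, had -0.23. For KLF4, at 3.39 kb, this median was 0.053. For KLF2, at 3.25 kb, it was 0.091. For EGR2, at 3.32 kb, it was 0.069, for NR4A2, at 5.23 kb, -0.23, and for NR4A3, at 6.59 kb, -0.35. These last 3 genes differed in sign from genes of their length. So did EGR1 (-0.11 beside 0.0061), KLF10 (-0.039 beside 0.067) and NR4A1 (-0.062 beside 0.085), while EGR3, KLF6, KLF4 and KLF2 had the same sign. The lengths were inferred from the counts and the FPKM. The part of gene length in these differences was not tested. With the length trend of each library removed, the log2 fold changes of the 10 members lay between -0.30 and 1.28, and none passed an adjusted p of 0.05 in edgeR.

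The groups did not overlap on the CPM scale for 3 members, EGR1, EGR2 and KLF10, all as higher in AdSirt4 cells. Of all tested genes, 9.66% were non-overlapping as higher and 9.77% as lower. On the FPKM scale this was the case for 1 member, KLF10, where 7.95% of all tested genes were non-overlapping as higher. There, AdSirt4 replicate 1 had 47.5 FPKM of EGR1, below the 48.1 FPKM of AdCtrl replicate 2. For EGR2 it had 1.36 FPKM, below the 1.40 FPKM of AdCtrl replicate 1. KLF10 was measured at 16.5, 16.4 and 18.0 FPKM in AdCtrl and at 18.8, 19.0 and 23.2 FPKM in AdSirt4 replicates 1, 2 and 3.

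Sequences just before the start sites of the members are shown because the EGR genes are textbook targets of serum response factor, which binds the CArG box, and NR4A and EGR genes of CREB, which binds TGACG and its longer form TGACGTCA. The RefSeq table of promoters (GRCh38.p14) covers 250 bases before to 50 bases after a start site, and 10 promoters of 7 members were searched on both strands. No promoter of EGR3, KLF10 or NR4A2 was searched. EGR1 held 2 CArG boxes, at 105 to 96 and 83 to 74 bases before its start site, and the third listed start site of EGR2 held 1, at 71 to 62 bases before it. No other promoter searched held a CArG box, which 1.29% of 35116 promoters have. TGACG was found 2 times in EGR1, 2 times at the third start site of EGR2, 2 times in KLF4 and 4 times in NR4A3, and it occurs in 24.6% of all promoters. TGACGTCA, which contains TGACG, was found in none of the promoters searched and in 1.85% of all. The windows below run 5′ to 3′ on the strand of the gene, with the motif in capitals, and CGTCA is TGACG on the other strand.
EGR1, first CArG box, chr5:138465366-138465391, plus strand: cggtcctgCCATATTAGGgcttcctg
EGR1, second CArG box, chr5:138465388-138465413, plus strand: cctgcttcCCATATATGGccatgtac
EGR2, CArG box, chr10:62816420-62816445, minus strand: tcctcagtCCATATATGGgcagcgac
EGR1, TGACG on the other strand, chr5:138465405-138465425, plus strand: gccatgtaCGTCAcgacggag
EGR2, TGACG on the other strand, chr10:62816408-62816428, minus strand: ggcagcgaCGTCAcgggtatt
NR4A3, TGACG, chr9:99821794-99821814, plus strand: cgtcacatTGACGtctcgcat
The second CArG box of EGR1 and that of EGR2 had the same letters. The first and second start sites of EGR2 held neither motif, nor did KLF2, KLF6 and NR4A1. The site of the EGR proteins, searched as GCGNGGGCG, was found in KLF2, KLF4, KLF6, EGR1 and the second start site of EGR2, and in 9.43% of all promoters. The motif GGGCGGG, to which SP and KLF proteins bind, was found in KLF2, KLF4, KLF6, NR4A3, NR4A1 and EGR2 and in 33.1% of all promoters, and it can overlap GCGNGGGCG. AAAGGTCA, which NR4A proteins bind as monomers, was found in none of the 10 promoters searched and in 1.22% of all. The counts are per gene and do not show which start site was used.

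The kinases and factors that act on these genes were read from a list of 30 upstream regulators, of which 29 were tested. At an unadjusted p under 0.01, edgeR called 0 of them, where 1.12% of all genes passed as higher and 0.784% as lower, and their median log2 fold change was -0.012. Without AdSirt4 replicate 1, where 30 were tested, the median was 0.045, beside -0.0028 for all genes. In that fit 2 passed an adjusted p of 0.05 in edgeR, both as higher, where 3.37% of all genes did. SRF, the serum response factor, was measured at 73.8, 79.9 and 75.2 CPM in AdCtrl and at 84.6, 95.0 and 88.3 CPM in AdSirt4 replicates 1, 2 and 3, and its groups did not overlap. Its log2 fold change was 0.23 (SE 0.0912, edgeR adjusted p = 0.612), and without AdSirt4 replicate 1 SRF rose by 0.26 (edgeR adjusted p = 0.0226). MAP2K1, which encodes the kinase MEK1 above ERK, had a log2 fold change of 0.22 and an adjusted p of 0.680, and TGFBR1, a receptor for TGF-β, one of 0.16 and an adjusted p of 0.705. MEF2C, a factor that acts on KLF2 in vessels, had a log2 fold change of -0.67 (edgeR adjusted p = 0.691). Its groups overlapped on the CPM scale and did not on the FPKM scale. Without AdSirt4 replicate 1 the log2 fold changes were 0.11 for MAP2K1, 0.18 for TGFBR1 and -0.41 for MEF2C.

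Of 29 relatives and partners of the members, 21 were tested, and 8, among them EGR4 and WT1, had too few counts. Of these, 7 had a log2 fold change above 0 and 14 one below 0, with a median of -0.13 that was -0.035 without AdSirt4 replicate 1. At an unadjusted p under 0.05, 2 passed as lower, where 3.50% of all genes did, and 0 as higher. With AdSirt4 replicate 1 left out, 4 were higher and 3 lower at this threshold, where 11.8% and 12.5% of all genes were. In that fit 1 was higher at an adjusted p under 0.05 in edgeR, where 3.37% of all genes were. The 2 relatives that were lower with all samples were SP9, with 0.727 and 0.363 CPM as group means (log2 fold change -0.98, adjusted p = 0.578 from edgeR), and SP6, with 3.16 and 2.32 CPM (-0.45, adjusted p = 0.604 from the same edgeR test). The raw counts of SP9 were low, from 24 to 46 in AdCtrl and from 11 to 43 in AdSirt4 samples. KLF9, a KLF factor induced by glucocorticoids, had a log2 fold change of -0.51 (edgeR adjusted p = 0.637). That of KLF5, a factor of proliferating epithelium, was 0.20 (edgeR adjusted p = 0.640). Without AdSirt4 replicate 1 these values were -0.34 and 0.21. The groups of both did not overlap on the CPM scale, while on the FPKM scale those of KLF9 did. Of the 21, 3 were non-overlapping on the CPM scale as higher and 5 as lower, where 9.66% and 9.77% of all genes were. NAB1 and NAB2, which bind EGR proteins and repress them, had log2 fold changes of -0.18 and -0.047 (adjusted p of 0.734 and 0.869 from edgeR). Their groups overlapped on the CPM scale, and on the FPKM scale those of NAB1 did not. The log2 fold changes were -0.079 and -0.035 without AdSirt4 replicate 1.

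Other genes of the early response gave the fullest comparison with the members. All 34 listed genes were tested, and 28 had a positive log2 fold change, with a median of 0.34. Of these genes, 11 were higher and 1 was lower at an unadjusted p below 0.01, where 1.12% and 0.784% of all genes passed. None passed an adjusted p of 0.05 in edgeR, and without AdSirt4 replicate 1 there were 13 higher and 3 lower that did, with a median of 0.23, where 3.37% of all genes were called as higher and 3.34% as lower. DESeq2 on all 6 samples called 9 of the list as higher and 1 as lower, where it called 0.788% and 0.538% of the genes to which it gave an adjusted p. With the gene-length correction DUSP5 and HBEGF passed in edgeR (adjusted p = 0.0318 for both), and with the replicate number as a block in that fit they did not (adjusted p = 0.130 and 0.134). The smallest p-values belonged to DUSP5, a phosphatase that acts on ERK, to HBEGF, a ligand of the EGF receptor, to CCN2, a matricellular protein, and to FOSB, an AP-1 subunit. DUSP5 was measured at 38.7, 34.8 and 40.3 CPM in AdCtrl and at 67.3, 62.0 and 59.7 CPM in AdSirt4 replicates 1, 2 and 3. In DUSP5, HBEGF and CCN2, unlike EGR3 and KLF6, AdSirt4 replicate 1 was the highest sample of its group. These 3 genes are shorter, at 2.84, 2.70 and 2.67 kb against 5.16 kb for EGR3 and 5.25 kb for KLF6. The part of the length trend of that library in this contrast was not tested. The log2 fold changes of these 4 genes were 0.73, 0.81, 0.73 and 0.73 with all samples. They were 0.68, 0.71, 0.56 and 0.75 without AdSirt4 replicate 1, beside 0.68 for EGR2 and 1.55 for EGR3. This list was written with earlier results of these data known.

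Of 24 genes reported as targets of the members, 20 were tested, 10 on each side of 0, with a median log2 fold change of 0.049 that was -0.019 without AdSirt4 replicate 1. At an unadjusted p under 0.01, 3 passed as higher and 0 as lower, where 1.12% and 0.784% of all genes did. At an adjusted p under 0.05, DESeq2 called 3 as higher (0.788% of all genes), and edgeR without AdSirt4 replicate 1 called 5 of 21 as higher and 1 as lower (3.37% and 3.34% of all genes). SMAD7, the inhibitory SMAD, had 24.0, 26.0 and 25.3 CPM in AdCtrl and 42.7, 40.2 and 43.5 CPM in AdSirt4 replicates. PMEPA1, another brake on TGF-β signaling, had group means of 69.6 and 101 CPM, and PDGFB, a growth factor, had 29.9 and 38.2 CPM. Their log2 fold changes were 0.75, 0.53 and 0.35, with adjusted p of 0.204, 0.494 and 0.494 from edgeR. SMAD7 passed with the gene-length correction (edgeR adjusted p = 0.0216) and did not with the replicate block added to it (adjusted p = 0.0895). ENG, a co-receptor for TGF-β, had a log2 fold change of -0.44 (edgeR adjusted p = 0.584). Its AdSirt4 samples lay below its AdCtrl samples on the CPM scale, where 9.77% of all tested genes were non-overlapping as lower.

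The genes whose samples followed EGR1 most closely were found by the root mean square difference of centred log2 CPM over the 6 samples. The nearest was UCA1, a long noncoding RNA, at 0.042 on the log2 scale, with 35.1, 41.1 and 32.1 CPM in AdCtrl and 42.1, 51.1 and 46.3 CPM in AdSirt4 replicates 1, 2 and 3. LOC112268219, LOC100505715, AVEN and LOC105375798 followed at 0.058, 0.063, 0.064 and 0.066. Counts were low for LOC100505715, from 28 to 70 a sample, and for LOC105375798, from 10 to 26, and log2 CPM was taken with a prior count of 2. Of the other members KLF6 was the nearest, at 0.15, at rank 500 of all tested genes, and KLF10 lay at 0.16. EGR3, at 0.65, was the member farthest from EGR1.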

How the data were processed

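Poly-T-selected RNA of 6 HK2 samples was sequenced as 1 library a sample. The authors deposited raw counts per gene together with length-scaled values for those genes, read here as FPKM, since its unit is not named. The submitters' processing notes name fastp 0.21.0, HISAT2 2.1.0, StringTie 2.1.5 and DESeq2 1.30.1 with build hg38. The annotation is not given in the sources used here. The cell line field names a different line in each sample, while every title gives HK2.

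Counts were filtered with filterByExpr (minimum count of 10), scaled by TMM and compared with the robust quasi-likelihood test of edgeR 4.0.16 in R 4.3.3, with Benjamini-Hochberg adjustment over all genes tested at a threshold of 0.05. Calls at an unadjusted p of 0.01 and 0.05 were counted as well. The 95% intervals use the residual and prior degrees of freedom of that fit. For each member an exact permutation test, two-sided, was run on log2 CPM with a prior count of 2. DESeq2 1.42.0 and limma 3.58.1 served as alternatives. Positions and promoters came from RefSeq (GRCh38.p14). Python 3.11.15 was used for sequences and figures. The tests were tried on simulated data first.

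Samples with the same replicate number deviated together (correlations of 0.18, 0.16 and 0.18 across genes for numbers 1, 2 and 3, and between -0.19 and 0.030 otherwise), so the numbers were taken to pair the samples, from the data alone. The main edgeR test and the exact permutation test treated the samples as unpaired. Among the tests, the pairing entered only the fits with a replicate block. No replicate was a copy of another, with a chi-square per gene of 9.97 or more.

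The members and lists were chosen with earlier results of these data known. Beside the members, the text names SIRT4, NAB1, NAB2 and the 5 genes nearest to EGR1. Of each list other than the markers, it names the 4 genes with the smallest p. Some cell type markers, EGR4, WT1 and the long noncoding genes that overlap members are named outside this rule. Every column was assigned to a sample. Where no read was counted, the limit is 3 counts, or 0.0350 to 0.0722 CPM by library, and covers counting error only.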

Additional observations from a re-analysis of the deposited data

How the results depend on the processing

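The direction of EGR1, EGR2, EGR3, KLF2, KLF6, KLF10 and NR4A2 was the same in every alternative that could test them. Limma voom with sample quality weights passed the adjusted threshold for EGR1 (log2 fold change 0.40), EGR2 (0.61), EGR3 (1.64) and KLF6 (0.30), and it reversed KLF4 (-0.016) and NR4A1 (0.024). NR4A1 was 0.097 without AdCtrl replicate 3 and NR4A3 was 0.049 without AdCtrl replicate 1. Leaving out 1 sample at a time gave log2 fold changes from 0.27 to 0.46 for EGR1, from 0.47 to 0.72 for EGR2, from 0.91 to 1.59 for EGR3, from 0.098 to 0.39 for KLF2, from 0.040 to 0.41 for KLF4, from 0.14 to 0.30 for KLF6, from 0.22 to 0.37 for KLF10, from -0.13 to 0.097 for NR4A1, from -0.51 to -0.18 for NR4A2 and from -0.52 to 0.049 for NR4A3.

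Members at an adjusted p under 0.05 numbered 0 in the test of all samples, 4 in voom and 0 to 4 with a sample left out, the 4 being without AdSirt4 replicate 1. Members at an unadjusted p under 0.01 numbered 0, and 3 in DESeq2, 1 with the length trend removed, 2 with that and the replicate block, 5 in voom and 0 to 5 with a sample left out. Over all genes the same fits had 338 of 17720, and 671, 778, 694 and 2351, and 82 to 2070 with a sample left out. The 5 members with a sample left out were without AdSirt4 replicate 1, where 2070 of 18287 genes passed. Members whose groups did not overlap numbered 3, and 1 on the FPKM scale and 3 to 6 with a sample left out. Of the 17720 tested genes this held for 3443, and for 3054 on the FPKM scale and 4477 to 7400 with a sample left out. The 6 members were found without AdCtrl replicate 1, where 4485 genes did not overlap, and without AdSirt4 replicate 1, where 7400 did not. The cause of these differences was not tested.

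Over all genes, 2 had an adjusted p under 0.05. With the replicate number as a block there was 1, and the block changed no call of a member. There were 212 in DESeq2, 5 among all genes with at least 1 count, 4 at 10 counts in every sample, 12 with the length trend removed, 6 with that and the replicate block, 0 in limma on log2(FPKM + 1) with or without the block, 1 at a pseudocount of 0.1, 5 at a mean FPKM of at least 1, 1584 in voom and 0 to 1227 with a sample left out, the highest without AdSirt4 replicate 1. At an unadjusted p under 0.01 there were 338, and 671 in DESeq2, 778 with the length trend removed, 694 with that and the block, 216 at a mean FPKM of at least 1, 2351 in voom and 82 to 2070 with a sample left out. Genes whose groups did not overlap numbered 3443, and from 4477 to 7400 with a sample left out, the highest again without AdSirt4 replicate 1. NR4A3 had 16 to 46 counts a sample, the fewest of the members.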
